A study of Mus musculus with 18 samples.

Results

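The hnRNP, SR and spliceosome proteins were taken as every gene whose symbol begins with Hnrnp, Srsf, Sf3a, Sf3b or Snrp. This gave 44 of the 12393 genes that the arrays measure with a probe set of a single gene symbol, and 115 of 22690 probe sets. They were 18 hnRNP genes, 9 SR protein genes, 9 genes of the SF3a and SF3b complexes and 8 snRNP genes. Each gene was read from its probe set with the highest mean log2 signal over all arrays, and 30 of the 44 genes had more than 1 probe set. The RNA came from motor neurons of the mouse lumbar spinal cord, cut out of stained frozen sections by laser capture and hybridised to Affymetrix one-colour arrays. The G93A mice carry a human SOD1 transgene with the G93A mutation, which causes a familial form of amyotrophic lateral sclerosis. Controls were their littermates without the transgene. Animals were taken at 60, 90 and 120 days of age, with 3 animals per genotype and age, 1 array per animal and 18 arrays in all. The labels give neither the strain nor the transgene's promoter and copy number, so the study compares transgene carriers with non-carriers and holds no animals with a wild-type human SOD1 transgene.

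Before an mRNA leaves the nucleus its introns are removed by the spliceosome. The snRNP proteins are bound to the small nuclear RNAs, and the Sm proteins among them form a ring around these RNAs. The SF3a and SF3b complexes belong to the U2 snRNP and hold it on the branch point of the intron. SR proteins bind exons and mostly help nearby splice sites to be used, while hnRNPs coat the transcript, often act against the use of a splice site and also take part in the transport, stability and translation of mRNA. In neurons many of these proteins travel with mRNA into axons, and several hnRNPs are mutated in, or found in the protein aggregates of, amyotrophic lateral sclerosis.

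Signals are the authors' MAS5 signals, in arbitrary linear units that are scaled per array. Differences are log2 differences of group means with their standard errors, from limma over all 18 arrays. A gene is said to have risen or fallen only where the adjusted p (Benjamini-Hochberg over the 16565 probe sets tested) is below 0.05. The p-values rest on 1 estimate per probe set of the spread between animals within groups. That estimate is pooled over the 6 groups and drawn toward probe sets of like intensity, so it is not the spread of the groups compared alone. On the arrays, 23 of the 44 genes stood above the median signal of the array on all 18 arrays, and 3 did so on fewer than 9, namely Hnrnpl and Snrpn and Sf3b5, so the values of these 3 are near background. The control array of replicate 3 at 60 days had the lowest mean correlation with the other arrays, 0.613. The other 17 ranged from 0.633 to 0.749. Replicate 3 of these controls also had the lowest mean log2 level of the 44 genes relative to all genes, 0.716. On the other 17 that level was 0.904 to 1.546, and it is taken from the 44 genes themselves. The motor neuron marker genes Slc18a3 and Slc5a7, which encode the vesicular acetylcholine transporter and the choline transporter, were below the array median on at least 16 of the arrays, while the neurofilament genes gave most of the signal of the motor neuron list. In the oligodendrocyte list Mbp gave most of the signal. Arrays of RNA from captured tissue cannot tell fewer cells of a type from less RNA per cell.

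**Figure D1:**
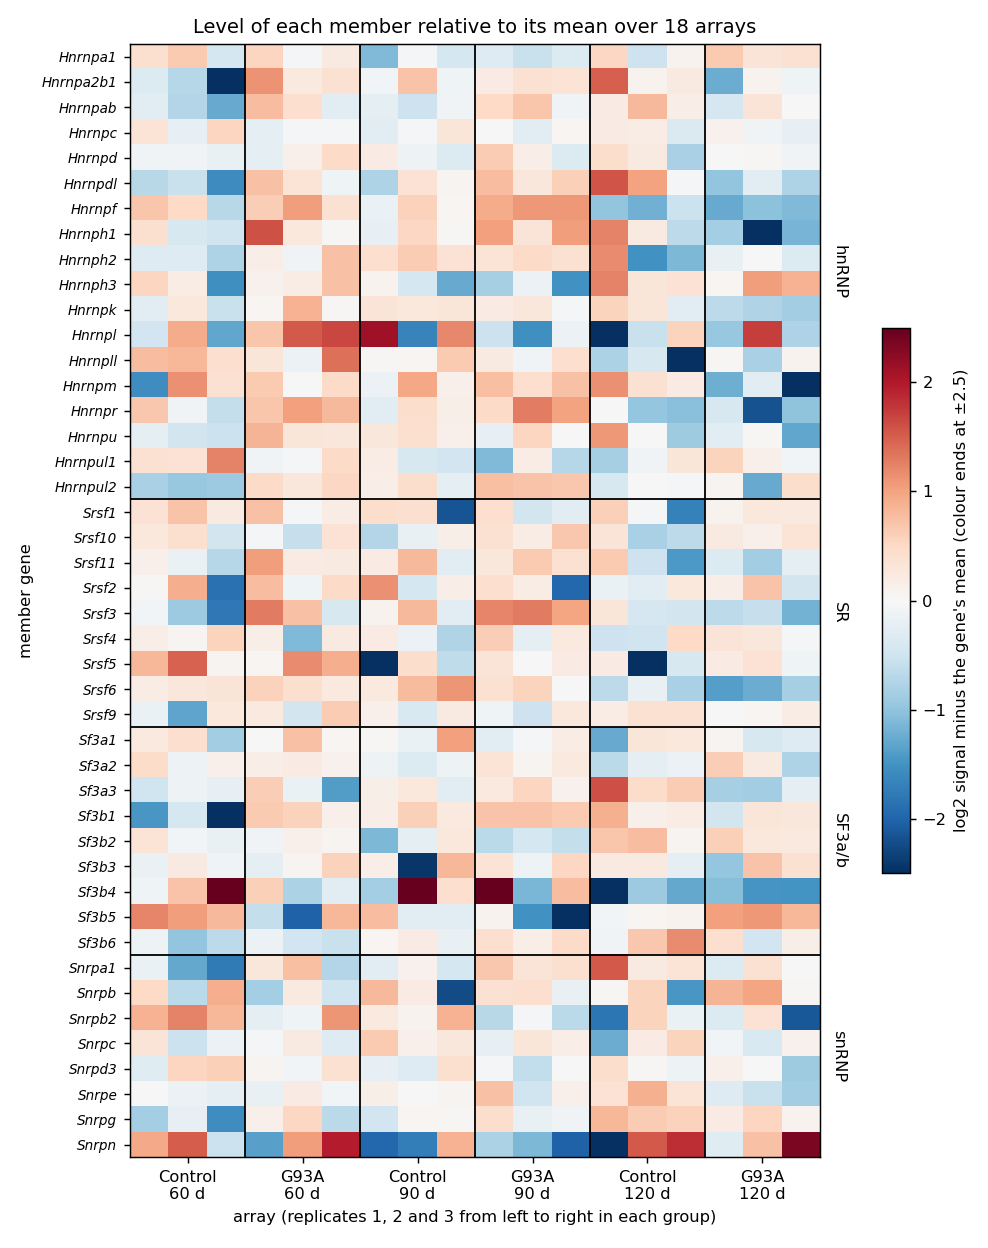
Log2 signal of the 44 genes (one line per gene, grouped as hnRNP, SR, SF3a and SF3b, and snRNP) on the 18 arrays, each gene shown as its difference from its own mean over all arrays. Columns are grouped by genotype and age with 3 arrays each; the control array of replicate 3 at 60 days, where the 44 genes had their lowest level relative to all genes (0.716), is the lowest array of Sf3b1, Hnrnpa2b1 and Hnrnpdl.

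Among the 6 groups of arrays, 7 of the 44 genes differed by limma's F test across the 6 group means, where 8.95% of all tested probe sets did. These were Hnrnpf (F = 13.66, adjusted p = 0.000502), Srsf6 (F = 8.58, adjusted p = 0.00459), Hnrnpr (F = 8.46, adjusted p = 0.00476), Hnrnpdl (F = 6.84, adjusted p = 0.0115), Srsf3 (F = 6.58, adjusted p = 0.0133), Sf3b1 (F = 6.37, adjusted p = 0.0149) and Hnrnph1 (F = 5.50, adjusted p = 0.0258). Of the 7, 4 are hnRNPs, 2 are SR proteins and 1 is a subunit of SF3b. No snRNP gene was among them, though the smallest adjusted p of the 8 snRNP genes in this F test was 0.05002. With 1 array left out, Sf3b1 lost this call without the control array of replicate 3 at 60 days, and Hnrnph1 without replicate 1 or 3 of the G93A arrays at 90 days or replicate 2 at 120 days.

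Promoter sequence is shown for 5 genes that the results below turn on. Sf3b1, Hnrnpdl, Snrpa1 and Snrpg had the smallest adjusted p among the genes that rose between 60 and 120 days in controls, and Srsf6 is an SR protein gene that fell with age in G93A mice. Each window holds the 250 bases before the gene's start in RefSeq (build GRCm38.p6), printed 5′ to 3′ on the strand of the gene. Capitals mark the letters of an ETS site (CCGGAAG) or a GC box of the Sp1 type (GGGCGG), searched on both strands. The windows are chr1:55027479-55027728 on the minus strand for Sf3b1, chr5:100039223-100039472 on the minus strand for Hnrnpdl, chr7:66060086-66060335 on the plus strand for Snrpa1, chr6:86371290-86371539 on the plus strand for Snrpg and chr2:162931258-162931507 on the plus strand for Srsf6.
Sf3b1: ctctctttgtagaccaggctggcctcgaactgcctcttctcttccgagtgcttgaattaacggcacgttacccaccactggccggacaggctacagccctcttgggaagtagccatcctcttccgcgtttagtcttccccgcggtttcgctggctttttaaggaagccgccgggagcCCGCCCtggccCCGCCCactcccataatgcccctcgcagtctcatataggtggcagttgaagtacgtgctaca
Hnrnpdl: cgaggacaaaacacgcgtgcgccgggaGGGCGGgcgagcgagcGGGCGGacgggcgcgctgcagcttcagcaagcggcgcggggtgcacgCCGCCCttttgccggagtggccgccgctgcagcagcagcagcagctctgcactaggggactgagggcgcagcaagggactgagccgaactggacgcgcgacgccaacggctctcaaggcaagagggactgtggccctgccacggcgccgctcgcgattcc
Snrpa1: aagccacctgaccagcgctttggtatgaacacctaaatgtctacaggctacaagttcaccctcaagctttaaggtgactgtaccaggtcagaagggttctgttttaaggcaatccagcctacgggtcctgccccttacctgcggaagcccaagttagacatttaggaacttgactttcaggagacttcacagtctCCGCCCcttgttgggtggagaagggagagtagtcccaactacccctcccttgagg
Snrpg: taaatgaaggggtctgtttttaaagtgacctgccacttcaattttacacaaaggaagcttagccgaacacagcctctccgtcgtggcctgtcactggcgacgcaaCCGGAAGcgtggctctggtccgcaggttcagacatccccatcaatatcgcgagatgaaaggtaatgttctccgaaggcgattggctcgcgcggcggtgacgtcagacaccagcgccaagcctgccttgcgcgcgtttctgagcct
Srsf6: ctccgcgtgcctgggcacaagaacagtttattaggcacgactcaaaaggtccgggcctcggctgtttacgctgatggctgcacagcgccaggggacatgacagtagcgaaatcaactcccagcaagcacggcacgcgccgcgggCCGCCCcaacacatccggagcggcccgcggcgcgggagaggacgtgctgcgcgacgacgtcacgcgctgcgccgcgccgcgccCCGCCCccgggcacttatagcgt

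The window of Hnrnpdl held 3 GC boxes, those of Sf3b1 and Srsf6 held 2 each, that of Snrpa1 held 1, and that of Snrpg held no GC box and 1 ETS site. RefSeq gave 55 windows for 39 of the 44 genes. The ETS letters were in 18 of the 55 windows (32.7%), against 6.91% of all 32851 promoter windows of that length and 11.7% of the 10365 windows of genes tested on the arrays. The GC box was in 65.5% of the windows, against 32.7% of all windows and 53.9% of those of tested genes. A CCAAT box (CCAAT) was in 43.6% of the windows, against 33.8% of all and 34.5% of those of tested genes. A TATA box (TATAAA) was in 9.09%, against 12.4% and 7.87%. Median GC content was 60.4% in the windows of the 39 genes, 52.4% in all windows and 59.2% in those of tested genes. A match says only that these letters are in the window, and binding at these promoters was not measured here.

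At 60 days Sf3b1 was the 1 gene of the 44 that passed the test between G93A and control motor neurons, and 0 of the 18 hnRNP genes passed it. Sf3b1, the largest subunit of SF3b, rose 5.19-fold. In all, 30 of the 44 genes had a difference above 0, where 46.4% of the tested probe sets did (26 of 44 without the control array of replicate 3), with a median log2 difference of 0.22 against -0.07 over the 10020 genes tested. In 9 of the 44 all 3 G93A arrays lay above all 3 control arrays, and in 0 of the 44 did they lie below, where 7.85% and 10.6% of all tested probe sets did so. The counts of 1 gene called higher and 0 lower stand beside 0.67% and 0.0181% of the tested probe sets. At an unadjusted p below 0.05, 10 of the 44 genes were higher and 0 were lower, where 7.85% and 4.73% of the tested probe sets were.

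The signal of Sf3b1 was 58.3, 117.4 and 10.7 on the control arrays at 60 days and 250.3, 235.9 and 173.7 on the G93A arrays. All 3 G93A arrays were above all 3 controls, and the lowest control was replicate 3. The log2 difference was 2.38 ± 0.54 (SE, n = 3 per group) with an adjusted p of 0.0361 by limma. Both other probe sets of Sf3b1 had the same sign (1.50 and 2.26), but on each the groups overlapped. The one at 2.26 gave 146.7, 82.4 and 4.1 in controls and 205.9, 122 and 215.8 in G93A mice. The one at 1.50, above the array median on 3 arrays, gave 76.8, 2.1 and 26.1 against 56.4, 32 and 53.3. At 90 days the signal of Sf3b1 on the probe set used was 179.2, 240.1 and 189 in controls and 259.3, 259 and 249.6 in G93A mice. At 120 days it was 294.3, 174.2 and 181.8 against 116.3, 196.1 and 193. The control arrays at 60 days thus spanned 10.7 to 117.4 and the 15 other arrays 116.3 to 294.3. The difference at 60 days was 1.39 without the control array of replicate 3. With 1 array left out, the adjusted p of Sf3b1 ranged from 0.00547 to 0.194, and the call was lost without that array, without any of the 3 G93A arrays at 60 days and without replicate 2 or replicate 3 of the G93A arrays at 90 days. It was also lost under 6 of the 13 other settings, with adjusted p from 0.0206 to 0.567 over all 13.

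**Figure D2:**
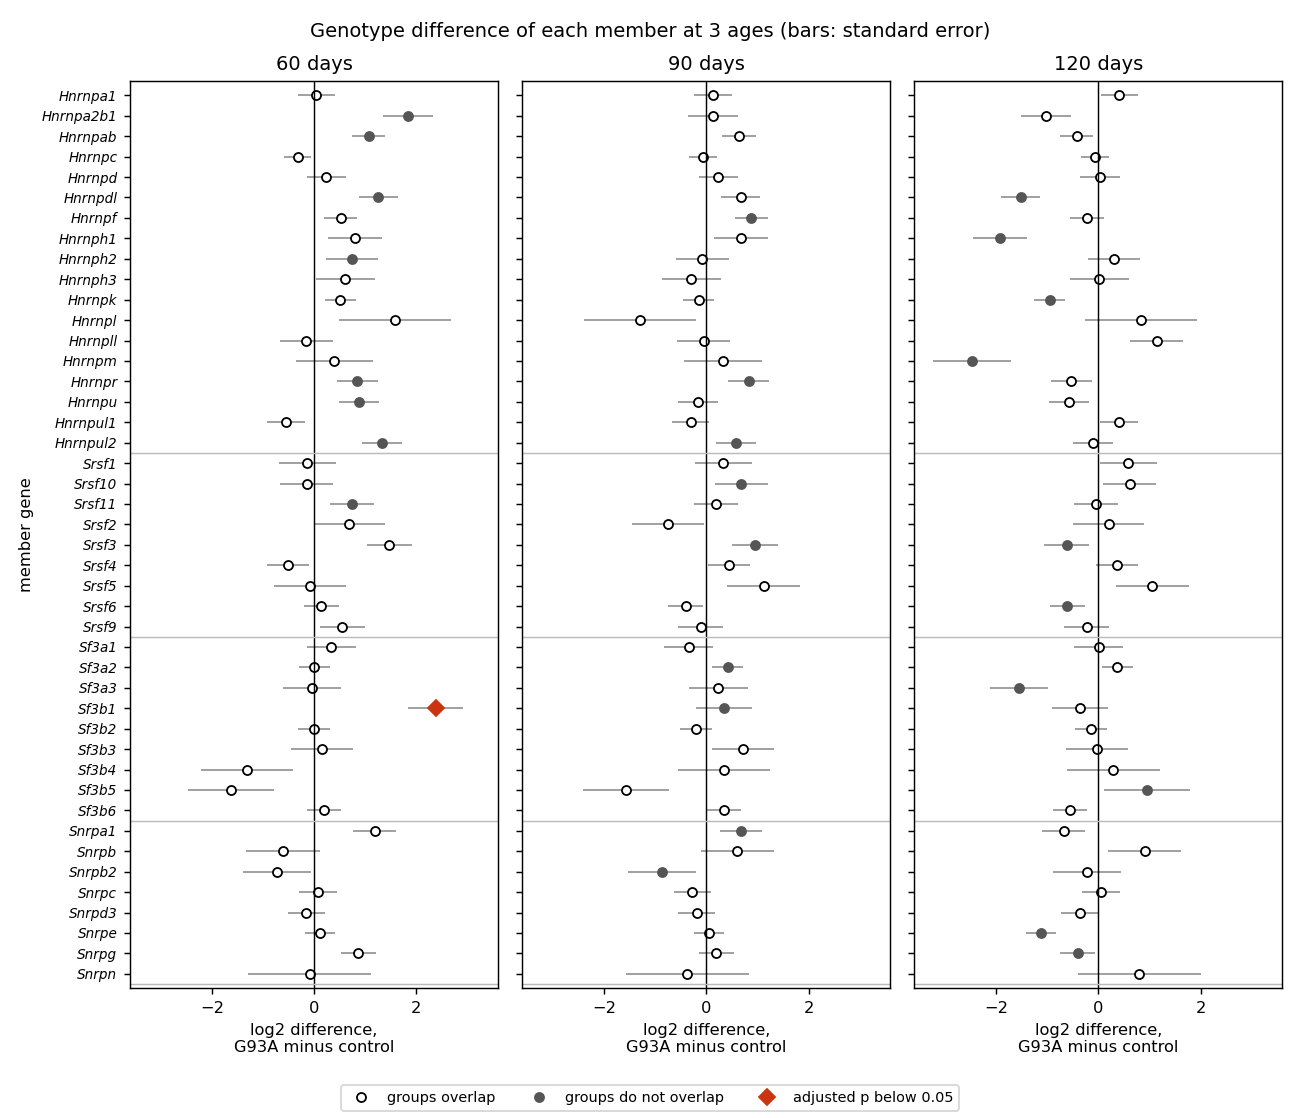
Log2 difference (G93A minus control) of each of the 44 genes at 60, 90 and 120 days, one panel per age, by gene family, with bars for the standard error, filled points where the 3 G93A and the 3 control arrays do not overlap and a red diamond for an adjusted p below 0.05. At 60 days 9 genes lie above 0 without overlap and at 120 days 9 lie below 0 without overlap.

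Of the 18 hnRNP genes, 15 had a difference above 0 at 60 days, with a median of 0.68, and in 7 of them the G93A arrays lay above the controls without overlap. Over all tested probe sets 46.4% had a difference above 0 and 7.85% lay above without overlap. The median over all genes was -0.07. The median stayed between 0.57 and 0.91 when arrays were centred or quantile-normalised or a pseudocount of 16 was added, and was 0.35 with the mean of all probe sets of a gene. Without the control array of replicate 3, 13 of 18 were above 0 and the median was 0.57. The medians of the SR protein genes (0.14), of SF3a and SF3b (0.00) and of the snRNP genes (-0.01) were closer to 0, and whether the families differed was not tested.

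Hnrnpa2b1, an RNA-binding protein of mRNA transport that is mutated in an inherited multisystem proteinopathy, had signals of 206.4, 158.9 and 39.9 in controls and 566.1, 309.8 and 338.7 in G93A mice at 60 days. Every G93A array was above every control, and the difference of 1.83 ± 0.49 did not pass the test (adjusted p = 0.0867, limma). Without the control array of replicate 3 it was 1.11 (adjusted p = 0.394, limma), and without that of replicate 1 it was 2.29 and passed the test (adjusted p = 0.0249, limma). Its 3 other probe sets were above 0 as well, from 1.00 to 2.21. Hnrnpdl, which binds AU-rich elements of mRNAs, had signals of 594.3, 653.3 and 323.5 in controls and 1585.8, 1211.1 and 888.4 in G93A mice, again without overlap. Its difference was 1.25 ± 0.38 (adjusted p = 0.128), and its 4 other probe sets gave 0.20 to 1.22. Hnrnpab, a close relative of Hnrnpdl, had signals of 565.8, 410.7 and 285.2 against 1162.9, 918.9 and 566, where the lowest G93A array and the highest control nearly touched, and its difference was 1.06 (adjusted p = 0.137). Of the 4 other probe sets of Hnrnpab 3 had the opposite sign, with a range of -2.14 to 0.37.

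Hnrnpul2, which resembles the scaffold attachment factor hnRNP U, had signals that lay close together within each group. They were 82.5, 74.7 and 76.8 in controls and 201.1, 176.6 and 206.4 in G93A mice, a difference of 1.32 (adjusted p = 0.124), but its other tested probe set gave -1.06. Hnrnpu itself, which binds nuclear RNA and chromatin, gave 394.3, 334.6 and 316.7 against 830.1, 566.4 and 557.6, a difference of 0.88 (adjusted p = 0.339), with its 3 other probe sets between -0.46 and 0.45. The remaining genes without overlap at 60 days were Hnrnpr (0.84, and 0.54 without the control array of replicate 3), which binds axonal mRNAs in motor neurons and whose other probe sets gave -0.52 and 1.65, Hnrnph2 (0.74) and the SR protein Srsf11 (0.74). In Hnrnpr the highest control (668.3) and the lowest G93A array (670.6) nearly touched, and in Srsf11 they were 239.8 and 253.2. Hnrnph2 and Srsf11 are outside the rule for named genes and complete the count. None of these differences passed the test.

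Srsf3, the smallest of the SR proteins, had signals of 176.1, 98.4 and 53.6 in controls and 454.6, 308.7 and 141.6 in G93A mice at 60 days, and the 2 groups overlapped. Its difference was 1.47 (adjusted p = 0.128). A weaker probe set of Srsf3, singled out after its values were seen, gave 8.4, 4.8 and 17.1 in controls and 110, 54.9 and 60.5 in G93A mice, a difference of 3.02 ± 0.59 with an adjusted p of 0.0167. The probe sets of Srsf3 thus ranged from -0.73 to 3.02 at this age. The weaker one was above the array median on 12 of the 18 arrays.

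**Figure D3:**
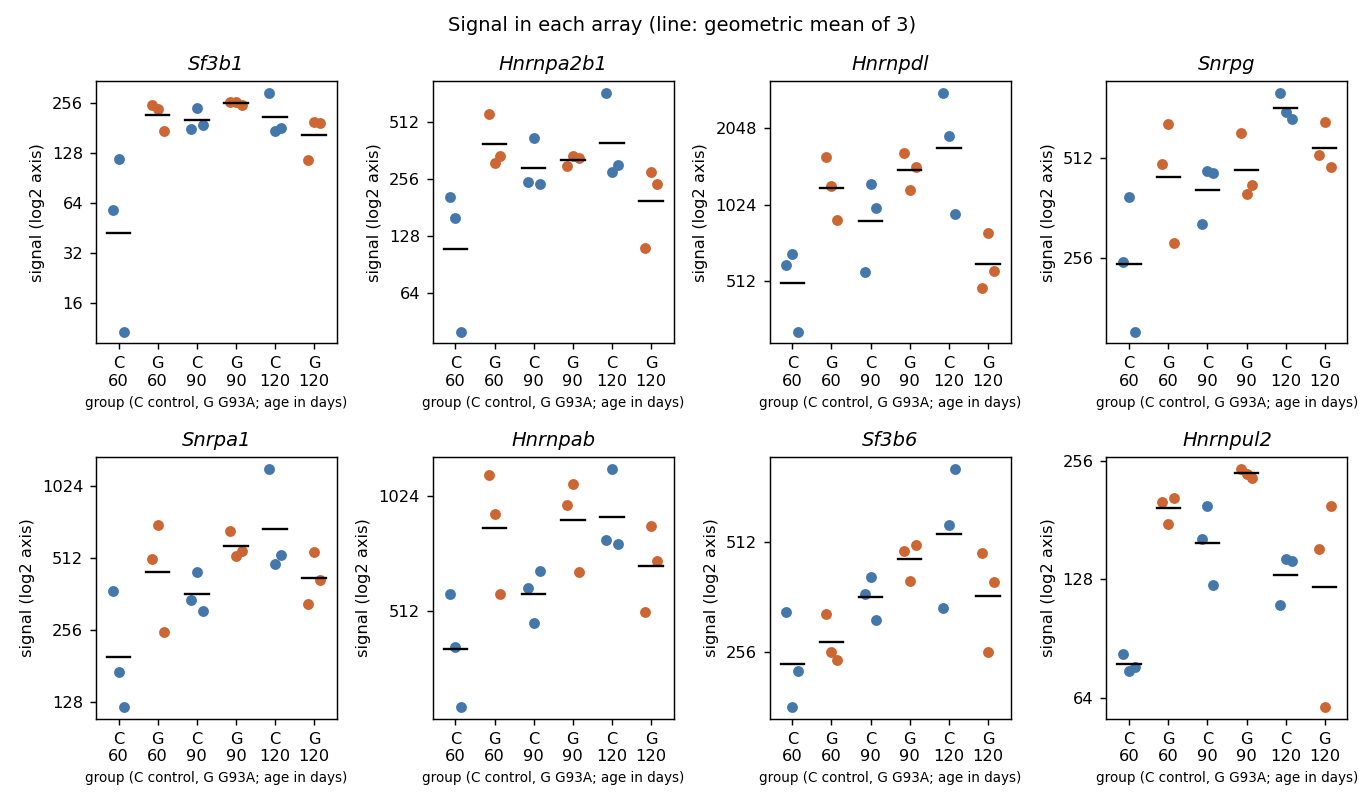
Signal of Sf3b1, Hnrnpa2b1, Hnrnpdl, Snrpg, Snrpa1, Hnrnpab, Sf3b6 and Hnrnpul2 on each of the 18 arrays (log axis, MAS5 units), with 1 point per array and a bar at the mean log2 level of each group of 3. The control arrays at 60 days hold the lowest group mean of Sf3b1, at signals of 10.7 to 117.4.

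Further measures moved with genotype at 60 days. The mean log2 signal of the 18 hybridization-control probe sets, which are spiked RNA, was 9.47 in G93A and 11.1 in control arrays, and the Gapdh ratio, the log2 signal at the 3' end of that transcript minus the log2 signal at its 5' end, was 4.14 against 3.36 (exact permutation p = 0.1 for each, the smallest that 3 against 3 allows, two-sided). The summed signal of the 8 motor neuron markers was 7403.5 to 19035.3 in G93A and 18697.2 to 28015.8 in control arrays. Of the 8 oligodendrocyte markers 7 were above 0 (median 0.94), with a summed signal of 13213.2 to 21352.4 in G93A and 12490.7 to 14184.6 in control arrays and 0 passing the test. Of the 8 microglia markers tested 3 were above 0 (median -0.11) and 1 passed the test, with a summed signal of 2720.6 to 3746.9 against 2515.9 to 4954.5. The part of these cell type markers in the differences at 60 days was not tested. With the hybridization-control level as a covariate the median of the 18 hnRNP genes at 60 days was 0.51 and 0 of the 44 genes passed the test. With the Gapdh ratio as a covariate 0 passed.

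At 90 days 0 of the 44 genes passed limma's test, as did 0% of the tested probe sets, and at an unadjusted p below 0.05 there were 2 genes higher and 0 lower, where 2.29% and 2.27% of the tested probe sets were. The median difference of the 44 genes was 0.19 against -0.01 over all genes, with 26 above 0, where 48.8% of the tested probe sets were. G93A arrays lay above the controls without overlap in 8 genes and below in 1, where 5.59% and 5.93% of the tested probe sets did. The 18 hnRNP genes had a median of 0.13 with 10 above 0, and with the hybridization-control level as a covariate that median was -0.02. That level was 9.09 in G93A and 9.83 in control arrays at 90 days (exact permutation p = 0.4). The Gapdh ratio was 4.39 against 3.25 (exact permutation p = 0.2). Above 0 were 8 of 9 astrocyte, 5 of 6 endothelial, 7 of 8 microglia and 6 of 8 oligodendrocyte markers tested. For motor neurons 2 of 6 were, and for interneurons 3 of 7. The part of these markers was not tested.

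Hnrnpf, which binds runs of G in RNA, had signals of 443.2, 739 and 511.1 in controls and 944, 1055.6 and 1051.8 in G93A mice at 90 days, and the G93A arrays were all the higher ones (0.88). Srsf3 had 198.1, 326.6 and 155.3 against 431.3, 454.6 and 369.3 (0.95). Hnrnpr had 342.7, 563.8 and 457.7 against 583.7, 1015.7 and 840.2 (0.83). The others above the controls without overlap were Snrpa1, a U2 snRNP protein (0.67), Hnrnpul2 (0.59), and outside the rule for named genes Srsf10 (0.68) and Sf3a2 (0.42), together with Sf3b1 (0.35). Snrpb2, another U2 snRNP protein, lay below them (-0.87). The other tested probe sets had the opposite sign for Snrpa1 (-1.31), Hnrnpul2 (-1.18), Sf3b1 (-2.01 and -0.26) and Snrpb2 (0.38), and 1 of 2 did for Hnrnpr (-0.69) and 1 of 5 for Srsf3 (-0.72). The adjusted p of each was at least 0.997.

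At 120 days the direction of the non-overlapping genes was the opposite one. In 9 of the 44 genes all G93A arrays lay below all controls and in 1 above, where 6.2% and 9.87% of the tested probe sets did. By limma 0 of the 44 genes passed the test (0.0181% of the tested probe sets were called higher and 0.00604% lower), and at an unadjusted p below 0.05 there were 7 lower and 1 higher, where 5.98% and 6.22% of the tested probe sets were. The median difference of the 44 genes was -0.09 against 0.07 over all genes, with 19 above 0, where 54.5% of the tested probe sets were. It was -0.14 after quantile normalisation and -0.41 with each array centred on its median. The 18 hnRNP genes had a median of -0.16 with 11 below 0, which was -0.48 with centred arrays and 0.02 with the mean of all probe sets of a gene.

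Hnrnpdl had signals of 2824.5, 1914.9 and 939.3 in controls and 482.5, 794.2 and 563.1 in G93A mice at 120 days, without overlap and with a difference of -1.52 (adjusted p = 0.121). Snrpe, an Sm protein of the ring around the small nuclear RNAs, had 869.1, 1254.4 and 858.7 against 541.8, 459.1 and 369.2, a difference of -1.12 (adjusted p = 0.127). Hnrnph1, which binds runs of G as Hnrnpf does, had 370.6, 183.7 and 99.4 against 86.6, 20.9 and 69.5, a difference of -1.92 (adjusted p = 0.149). In Snrpe the controls were at least 858.7 and the G93A arrays at most 541.8, while in Hnrnph1 the lowest control was close to the highest G93A array. The 4 other probe sets of Hnrnpdl were below 0 as well (-1.81 to -0.21), Snrpe had no other tested one, and the other one of Hnrnph1 gave 0.30.

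Hnrnpm, a splicing regulator that binds GU-rich RNA, had a wide spread among its G93A arrays. Its signals at 120 days were 152, 90.1 and 79.4 in controls and 29.7, 56.8 and 3.8 in G93A mice, a difference of -2.47 (adjusted p = 0.192), which was -1.32 without replicate 3 of the G93A arrays. Hnrnpk, a protein with KH domains that binds C-rich RNA, had 3006.4, 2520.1 and 1699 against 1299.8, 1218 and 1122.6, a difference of -0.95 (adjusted p = 0.205). The G93A values of Hnrnpk were close to each other and were its 3 lowest on the 18 arrays, but 2 of its 3 other probe sets had the opposite sign (range -0.99 to 1.09). Sf3b5, a small subunit of SF3b near background, had 30.9, 33.1 and 34 against 65.3, 67.9 and 57.2, and was the gene above the controls without overlap (0.96, adjusted p = 0.689).

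Markers of other cells also differed at 120 days. The summed signal of the 10 microglia markers was 13458.3 to 25085.5 on G93A arrays and 5018.7 to 8027.3 on control arrays, with 8 of the 8 tested markers above 0 (median 1.94) and 0 passing limma's test, while the microglia genes Aif1 and Itgam were below the array median on at least 16 arrays. The sum of the 8 motor neuron markers was 8672 to 16216.8 against 14317 to 28624.4. Their part in the differences of the 44 genes was not tested. The hybridization-control level was 11.6 on the arrays of each genotype. The Gapdh ratio was 4.937 in G93A and 4.475 in control arrays (exact permutation p = 0.3).

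The change of the genotype difference over the 3 ages was tested with an F test in limma, and Hnrnpdl was the 1 of 44 genes that passed (F = 14.85, adjusted p = 0.0278), where 0.417% of the tested probe sets did. Its genotype difference went from 1.25 in the youngest mice over 0.67 to -1.52 in the oldest. G93A arrays lay above the controls at 60 days and below them at 120 days, both without overlap, and at 90 days, with 557.1, 1232.2 and 996.5 in controls and 1640.3, 1167.6 and 1444.5 in G93A mice, the groups overlapped. At an unadjusted p below 0.05 there were 13 such genes, where 13.1% of the tested probe sets were. The call for Hnrnpdl held in 11 of 18 fits that left out 1 array, and was lost without replicate 1 or 2 of the G93A arrays at 60 days, replicate 3 of the controls at 60 days, replicate 1 or 3 of the G93A arrays at 120 days, and replicate 1 or 2 of the controls at 120 days. It was also lost after quantile normalisation, without an intensity trend in the prior, with the hybridization-control level as a covariate and with the mean of its probe sets.

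Averaged over the 3 ages, 0 of the 44 genes differed between genotypes by limma, where 0.0121% of the tested probe sets did, and 5 were higher and 0 lower at an unadjusted p below 0.05, where 4.42% and 3.31% of the tested probe sets were. The median was 0.12, against 0.01 over all genes, and 28 were above 0, where 51.3% of the tested probe sets were.

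In control mice 7 of the 44 genes rose and 2 fell between 60 and 120 days, where 3.87% of the tested probe sets rose and 2.84% fell. The genes that rose were 3 hnRNPs (Hnrnpdl, Hnrnpa2b1 and Hnrnpab), 2 subunits of SF3b (Sf3b1 and Sf3b6) and 2 snRNP proteins (Snrpa1 and Snrpg), and those that fell were Hnrnpf and Hnrnpll. No SR protein gene passed the test. In 10 of the 44 genes the older arrays lay above the younger without overlap and in 7 below, where 9.5% and 18.2% of the tested probe sets did. At an unadjusted p below 0.05 there were 8 higher and 7 lower, where 10.4% and 14.2% of the tested probe sets were. The control arrays at 60 days enter both this comparison and the genotype difference at 60 days, so the 2 are not independent. Likewise the control arrays at 120 days enter the genotype difference at 120 days.

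Hnrnpdl had signals of 594.3, 653.3 and 323.5 at 60 days and 2824.5, 1914.9 and 939.3 at 120 days in controls. It rose by 1.78 ± 0.38 (3.43-fold, adjusted p = 0.00677), without overlap, and its 4 other probe sets gave 0.60 to 1.49. Of the 9 calls its call alone held in all 18 fits that left out 1 array (adjusted p 0.00157 to 0.0490). Snrpg, an Sm protein, had 249.3, 390.5 and 153.9 at 60 days and 803.9, 705.9 and 672 at 120 days, with the older arrays all higher. It rose by 1.56 ± 0.34 (2.94-fold, adjusted p = 0.00795), and by 1.22 without the control array of replicate 3 at 60 days, where the call was lost.

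Snrpa1 had signals of 371.9, 170.8 and 121.9 at 60 days and 1211.9, 484.6 and 526.1 at 120 days in controls, a rise of 1.77 ± 0.41 (3.42-fold, adjusted p = 0.0115). The groups did not overlap, but its other tested probe set went the other way (-0.64). Sf3b1 rose by 2.33 ± 0.54 (5.03-fold, adjusted p = 0.0115), and its other probe sets gave 0.83 and 1.46, each with overlap between the groups. Hnrnpa2b1 had 731.3, 278 and 304.5 at 120 days against 206.4, 158.9 and 39.9 at 60 days, without overlap. It rose by 1.85 ± 0.49 (3.62-fold, adjusted p = 0.0253), while its other probe sets ranged from -0.37 to 2.20.

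Sf3b6, the SF3b subunit that touches the branch point, had signals of 330.4, 181.4 and 227.2 at 60 days and 337.5, 569.3 and 812.8 at 120 days in controls. It rose by 1.17 ± 0.33 (2.25-fold, adjusted p = 0.0355), although the highest of the younger arrays and the lowest of the older were close. Hnrnpab rose by 1.15 ± 0.33 (2.22-fold, adjusted p = 0.0362), with 786, 1207.7 and 767.5 at 120 days. Another probe set of Hnrnpab fell by 1.50 in the same comparison (adjusted p = 0.0171), so the direction for Hnrnpab depends on the probe set.

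Hnrnpll, which controls the exons of the leukocyte antigen CD45 in T cells, had signals of 227.5, 235.5 and 177.6 at 60 days and 77, 101.5 and 17.3 at 120 days in controls. It fell by 2.05 on the log2 scale (SE 0.52, adjusted p = 0.0203) without overlap, and its other tested probe set gave 0.93. Hnrnpf had 805.6, 701.5 and 309.5 at 60 days and 251.6, 215 and 343.6 at 120 days. It fell by 1.08 (SE 0.33, adjusted p = 0.0472), with overlap between the groups, and its call held in 4 of the 18 fits that left out 1 array, those without replicate 3 of the controls at 60 days, replicate 1 or 2 of the controls at 90 days or replicate 3 of the controls at 120 days.

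Without the control array of replicate 3 at 60 days, 3 of the 9 calls between 60 and 120 days remained, those of Hnrnpdl, Hnrnpf and Hnrnpll. Sf3b1 then gave 1.35, Hnrnpa2b1 1.13, Snrpa1 1.42, Sf3b6 1.14 and Hnrnpab 0.90. Without replicate 1 of the controls at 120 days the calls of Hnrnpa2b1 (1.41), Sf3b1 (2.09), Snrpa1 (1.35) and Hnrnpab (1.25) were lost. The call of Hnrnpab was also lost without replicate 2 of the controls at 60 days (1.16) or at 120 days (0.94), and that of Sf3b6 without replicate 2 at 60 days (0.97) and without replicate 2 (1.13) or 3 (0.88) at 120 days. The call of Hnrnpll was lost without replicate 1 (-1.99) or 2 (-1.97) at 60 days and without replicate 3 at 120 days (-1.26). The Gapdh ratio had a mean of 3.36 on control arrays at 60 days and 4.47 at 120 days, and with it as a covariate 1 of the 44 genes passed the test and none of the 9. The sum of the 8 oligodendrocyte markers measured was 12490.7 to 14184.6 at 60 days and 23114.1 to 40418.2 at 120 days, and its part in these differences was not tested. Of that sum Mbp gave 9365.6 to 11985.2 at 60 days and 15083.6 to 31699.6 at 120 days. Mal, of the same list, gave 304.9 to 1056.8 and 138.7 to 519.6.

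Over all 44 genes the median change in controls between 60 and 120 days was -0.02, against -0.22 over all genes, and 21 were above 0, where 40.6% of the tested probe sets were. The sign of this median depended on the scaling, with 0.05 after quantile normalisation and 0.48 with centred arrays, where the median of all tested probe sets moved from -0.26 to 0.00 and 0.24. With centred arrays 1416 tested probe sets rose and 154 fell, against 641 and 471 in the scaling used here. Between 60 and 90 days in controls 1 gene rose, Sf3b1 (2.27, adjusted p = 0.0331, limma), and 0 fell, where 1.36% and 0.248% of the tested probe sets did. That call was lost without the control array of replicate 3 at 60 days (1.28), without any of the 3 controls at 90 days and without replicate 3 of the G93A arrays at 90 days. At an unadjusted p below 0.05 there were 7 higher and 2 lower, where 7.96% and 6.85% of the tested probe sets were. The median change was 0.23, with 25 genes above 0, where 45.2% of the tested probe sets were.

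**Figure D4:**
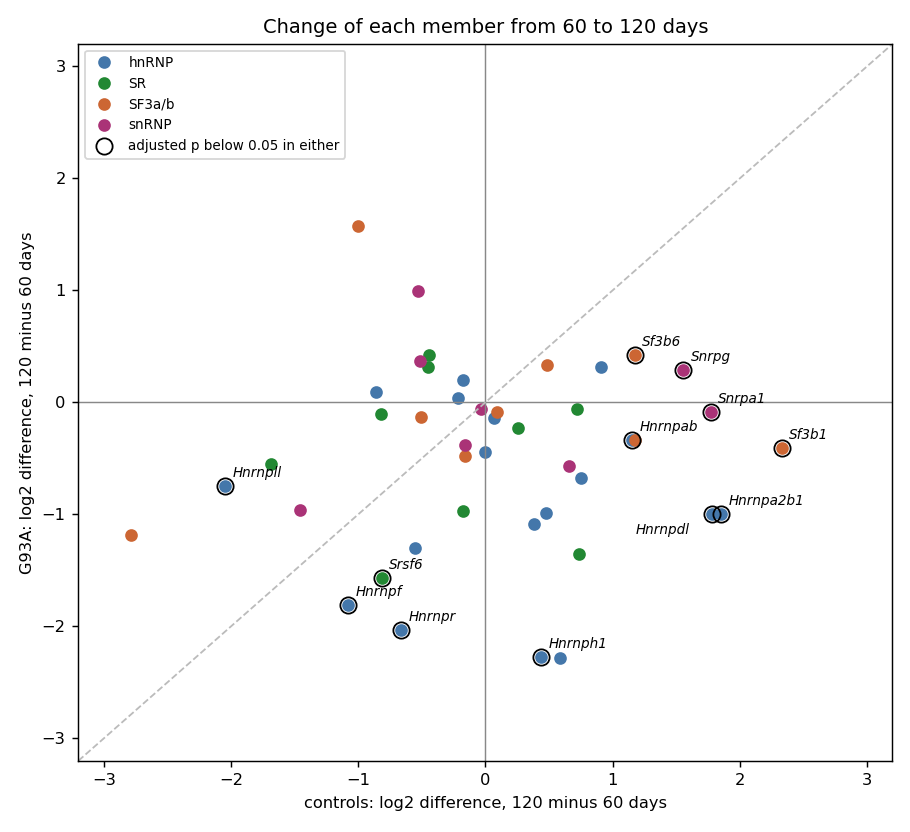
Log2 change from 60 to 120 days in control mice (horizontal axis) and in G93A mice (vertical axis) for the 44 genes, with those past the threshold in either genotype circled and named and a dashed line at equal change. No array enters both axes; the 7 genes that rose in controls lie on the right and the 4 that fell in G93A mice lie below.

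In G93A mice 4 of the 44 genes fell and 0 rose between 60 and 120 days, where 0.996% and 1% of the tested probe sets did. They were 3 hnRNP genes, Hnrnpf, Hnrnpr and Hnrnph1, and the SR protein gene Srsf6. In 13 of the 44 genes the 3 arrays at 120 days lay below the 3 at 60 days and in 2 above, where 11.2% and 10.6% of the tested probe sets did. At an unadjusted p below 0.05 there were 10 lower and 0 higher, where 9.65% and 6.65% of the tested probe sets were. The median change of the 44 genes was -0.36, against -0.11 over all genes, with 12 above 0, where 45.2% of the tested probe sets were. The G93A arrays of these 2 ages also enter the genotype differences at 60 and at 120 days. This change with age is thus not independent of those differences.

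In G93A mice Hnrnpf gave 764.3, 1028.2 and 650.3 on the youngest arrays, 944, 1055.6 and 1051.8 on those of 90 days and 208.8, 245.6 and 231.1 on the oldest. The arrays at 120 days were the lowest of the 9 and close to each other. It fell by 1.81 (SE 0.33, 3.51-fold, adjusted p = 0.00777), and this call held in all 18 fits that left out 1 array. Its second probe set, which like the first is marked as open to cross-hybridization by its name, gave -1.42 (adjusted p = 0.0533). A probe set of Hnrnpf without that mark, above the array median on 4 arrays, gave 1.70, so the fall rests on probe sets that may share signal with related sequences.

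Hnrnpr had signals of 670.6, 842.1 and 726.9 at 60 days and 315.8, 91.9 and 207.8 at 120 days in G93A mice, without overlap. It fell by 2.03 (SE 0.40, 4.08-fold, adjusted p = 0.0123), and its other probe sets gave -2.27 and -2.74. The change was -1.54 without replicate 2 at 120 days, and the call was lost without that array and without replicate 2 at 60 days. In controls Hnrnpr had 668.3, 389.9 and 273.9 at 60 days and 420.5, 213.3 and 201.5 at 120 days. Those groups overlapped, and the mean log2 level went from 8.70 to 8.04 without a call. The genotype difference of Hnrnpr at 120 days was -0.53 (adjusted p = 0.63, limma). In G93A mice Hnrnph1 gave 470.4, 187.4 and 160.6 on the youngest arrays, 318.3, 195 and 320.7 on those of 90 days and 86.6, 20.9 and 69.5 on the oldest. Its arrays at 120 days were all the lowest, and it fell by 2.27 (SE 0.53, 4.83-fold, adjusted p = 0.0274). The change of Hnrnph1 was -1.64 without replicate 2 at 120 days, and its call was lost without that array and without replicate 1 or 2 at 60 days.

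Srsf6, an SR protein that acts on exon choice in many tissues, gave 249.5, 218.8 and 197.7 on the youngest G93A arrays, 215.4, 244.8 and 168.3 on those of 90 days and 63.7, 70.1 and 93.5 on the oldest. It fell by 1.56 (SE 0.34, 2.96-fold, adjusted p = 0.0191), and its other probe sets gave -0.71 and -0.68. In controls its signals were 188.1, 203.5 and 209.3 at 60 days and 105.5, 146.2 and 95.5 at 120 days, a difference of -0.81 (adjusted p = 0.139), again without overlap. On this probe set the arrays at 120 days were thus below those at 60 days in each genotype, while in controls both other probe sets of Srsf6 were above 0 (0.54 and 1.33). The call in G93A mice was lost without replicate 1 or 2 at 60 days and without replicate 1 or 2 at 120 days.

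**Figure D5:**
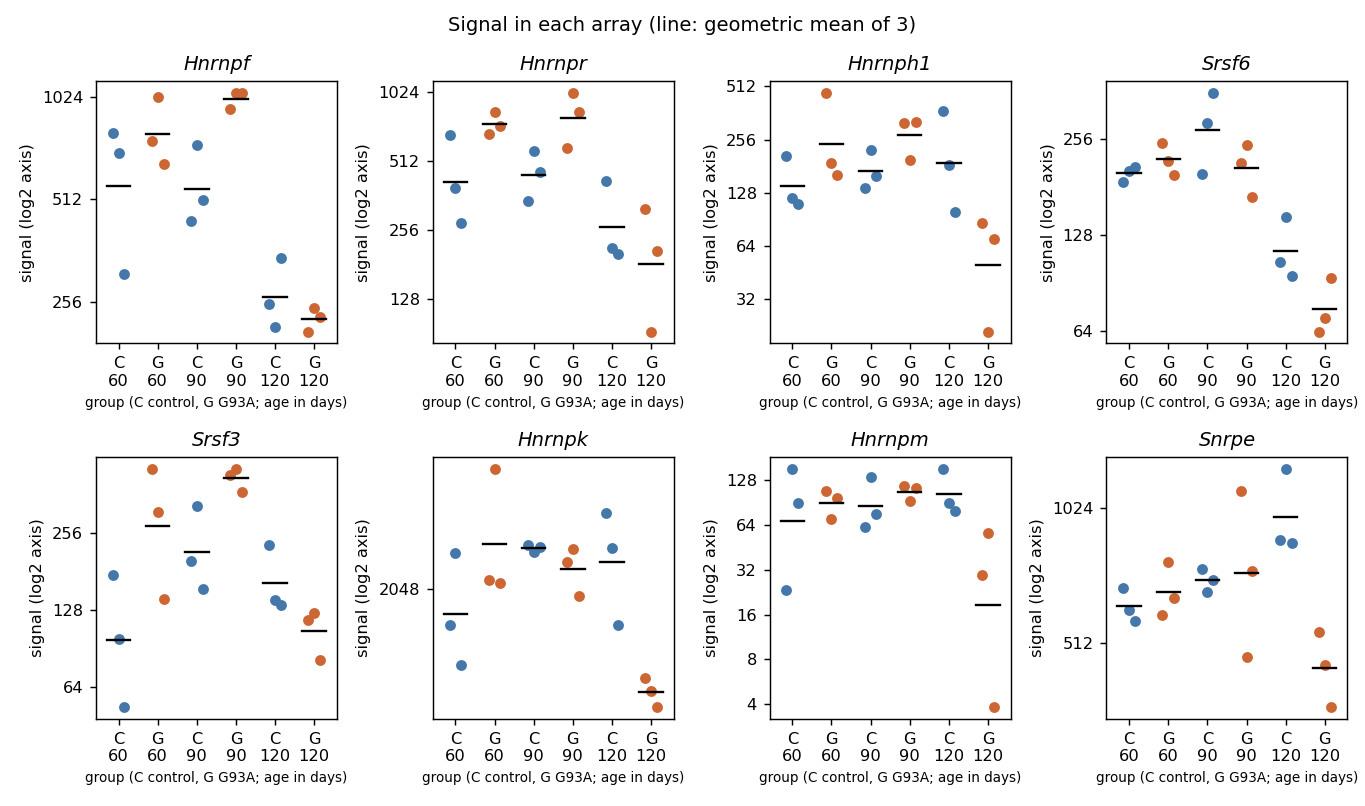
Signal of Hnrnpf, Hnrnpr, Hnrnph1, Srsf6, Srsf3, Hnrnpk, Hnrnpm and Snrpe on each of the 18 arrays (log axis, MAS5 units) by age and genotype, with 1 point per array and a bar at the mean log2 level of each group of 3. For Hnrnpf the 3 G93A arrays at 120 days lie between 208.8 and 245.6, below the 650.3 to 1028.2 of 60 days.

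Of the 18 hnRNP genes, 14 had a change below 0 in G93A mice between 60 and 120 days, with a median of -0.87, and in 8 the older arrays lay below without overlap. Over all tested probe sets 45.2% had a change above 0 and 11.2% lay below without overlap. The median over all genes was -0.11. The median of the hnRNP genes stayed between -0.41 and -0.92 over the other settings, the least with the mean of all probe sets of a gene. In controls the median of the same hnRNP genes was 0.23. The other families had medians of -0.23 (SR proteins, 7 of 9 below 0), -0.13 (SF3a and SF3b) and -0.08 (snRNP) in G93A mice and of -0.44, 0.09 and -0.10 in controls. Whether these medians differed between families or genotypes was not tested. Hnrnpk (-1.08, adjusted p = 0.0616), Hnrnpm (-2.28, adjusted p = 0.117), Srsf3 (-1.35, adjusted p = 0.112), Hnrnpa2b1 (-1.0), Hnrnpdl (-0.99) and Hnrnpu (-0.99) also had older arrays below the younger without overlap and did not pass the test.

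The summed signal of the microglia markers on G93A arrays was 2720.6 to 3746.9 at 60 days and 13458.3 to 25085.5 at 120 days, and that of the oligodendrocyte markers 13213.2 to 21352.4 and 26469 to 40184.1. That of the motor neuron markers was 7403.5 to 19035.3 and 8672 to 16216.8, and the part of these markers in the falls of the 44 genes was not tested. The hybridization-control level of the G93A arrays was 9.47 at 60 days and 11.6 at 120 days. With this level as a covariate, or without an intensity trend in the prior, 0 of the 44 genes passed the test in that comparison. With the mean of all probe sets 1 passed, and with probe sets not marked for cross-hybridization, an alternative chosen after seeing the data, 2 passed. Between 60 and 90 days in G93A mice 0 of the 44 genes passed limma's test, as did 0% of the tested probe sets, and at an unadjusted p below 0.05 there was 1 higher and 0 lower, where 2.66% and 2.83% of the tested probe sets were. The median change was 0.04 against -0.06 over all genes, with 24 above 0, where 45.9% of the tested probe sets were.

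The remaining genes of interest to motor neuron disease and splicing gave small or variable differences. Hnrnpa1, mutated in rare families with amyotrophic lateral sclerosis, had mean log2 levels between 7.23 and 8.21 in the 6 groups, with genotype differences of 0.04, 0.13 and 0.41 at 60, 90 and 120 days (adjusted p = 0.689 or higher by limma). Srsf1, the founding SR protein, gave -0.13, 0.33 and 0.59. Snrpb, the Sm protein B, gave -0.61, 0.61 and 0.91. Several of these uncalled differences changed sign when 1 array was left out, among them Snrpb (-0.30), Srsf1 (-0.53) and Snrpn (0.54) at 90 days and Srsf1 at 120 days (-0.07), each without replicate 3 of the controls of that age, and Snrpn at 120 days (-0.76) without replicate 1 of them. Snrpn, the imprinted neuronal relative of Snrpb, gave -0.09, -0.37 and 0.80 at the 3 ages. Its probe set was above the array median on 5 arrays, where a standard error of 1.21 leaves little precision. Further probe sets that name both Snurf and Snrpn were left out under the rule of a single symbol. The low signal is thus that of 1 probe set and does not give the level of Snrpn. Hnrnpa3 and Srsf7 have no probe set of a single symbol and were not analysed here.

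The probe sets of a gene often disagreed. Of the 44 genes, 27 had a further tested probe set, 52 in all. At 60 days 19 of these 52 had the opposite sign of genotype difference from the one used for the gene, in 13 genes, and at 120 days 24 had, in 16 genes. For the change from 60 to 120 days 24 of 52 were opposite in controls and 20 of 52 in G93A mice. For Hnrnpdl, Sf3b1, Hnrnpr, Hnrnph1, Srsf6 and Sf3b6 every other tested probe set had the sign of the change that was called. Only the sign was compared here, not the size. The mean of all probe sets of Sf3b6, untested ones included, changed by -0.66 in controls from 60 to 120 days. Hnrnpab, Hnrnpll, Snrpa1, Hnrnpa2b1 and Hnrnpf each had at least 1 of the opposite sign. The probe sets used for Hnrnpf, Hnrnpr, Hnrnpab, Srsf1, Sf3b2, Sf3b4 and Sf3b5 are marked by their names as open to cross-hybridization. Those of Hnrnpll, Hnrnpu, Sf3a1, Sf3a2, Snrpd3, Snrpg and Snrpe are marked as shared by several transcripts.

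Beyond these families, 99 further genes of the splicing pathway were tested, of a list of 126. By limma 0 passed at each of 60, 90 and 120 days between genotypes, with 12 higher and 4 lower, 1 higher and 6 lower, and 1 higher and 7 lower at an unadjusted p below 0.05. Over all tested probe sets these shares were 7.85% and 4.73%, 2.29% and 2.27%, and 6.22% and 5.98%. The median differences were 0.08, 0.02 and -0.15. In controls between 60 and 120 days 6 rose, namely Ewsr1 (1.43, adjusted p = 0.00633), Khdrbs1 (1.02), Snw1 (1.16), Pcbp1 (1.93), Lsm8 (2.73) and the SR protein kinase Clk1 (2.02), and 2 fell, Rbfox2 (-1.19) and Srrm1 (-1.48), where 3.87% and 2.84% of the tested probe sets did. In G93A mice 5 fell over the same interval, Snrnp40 (-1.96, adjusted p = 0.0120), Bcas2 (-1.90), Dhx15 (-1.30), Nova1 (-2.46) and Sfpq (-2.02), where 0.996% of the tested probe sets did, with a median of -0.31 over the 99 genes. The F test across the 6 groups called 11 of the 99, among them Ddx39b, Prpf6, Rbfox1 and Mbnl1, where 8.95% of all tested probe sets were called.

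Mbnl1, a splicing regulator known from myotonic dystrophy, had signals of 338.8, 123.6 and 111.3 in controls and 549.2, 361.7 and 438.9 in G93A mice at 60 days. The groups did not overlap, and the difference of 1.41 did not pass limma's test (adjusted p = 0.0990). Tardbp, which encodes TDP-43, the protein that aggregates in most amyotrophic lateral sclerosis, had 15.4, 29 and 4.7 against 165.9, 40.2 and 16.5, with overlap. All 3 of these controls lay below their array medians (58, 62.6 and 64), as did G93A replicates 2 and 3 (50.9 and 61.8), so the values are near background. The differences of Tardbp were 1.90 ± 0.97 at 60 days (adjusted p = 0.427), -0.86 at 90 days and -0.84 at 120 days.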

How the data were processed

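The authors deposited 1 intensity per probe set and array, MAS5 signals per the submitters' processing notes; its version and options were not given in the labels, headers or notes used here. Capture took 1000 motor neurons from 10 µm toluidine blue sections of each animal, per the labels' protocols. The trimmed mean was about the same on each array, so no further scaling was applied. Signals under 1 were set to 1 and log2 was taken. Probe sets above the array median in at least 3 of 18 arrays were tested (16565) with limma 3.58.1 in R 4.3.3, a model of the 6 group means with 12 residual degrees of freedom and an intensity trend in the prior, with Benjamini-Hochberg adjustment over all of them. Fold changes are on the scale of log2 signals floored at 1. The fit was tested on simulated data. The labels name separate animals, 3 per group. Control probe sets and 14 probe sets of these families that name several genes were left out. Named are the members past the threshold in a comparison, up to 5 without overlap per age and direction, a preset list (Hnrnpa1, Hnrnpa2b1, Hnrnpa3, Hnrnpk, Hnrnpu, Sf3b1, Srsf1, Srsf3, Srsf7, Snrpn, Snrpb), members whose probe sets disagree in a called direction and, of the other splicing genes, those past the threshold with Mbnl1 and Tardbp. The members and lists were chosen with earlier results of these data known. The alternatives tried were a pseudocount of 16, 2 filters, 2 normalisations, array weights, no trend, covariates, a replicate block, only the groups compared, other probe sets of a gene and leaving out each array. The number of arrays limits the precision, with a median standard error of 0.69 over all probe sets and 0.43 over the 44 genes for a genotype difference at 1 age. Promoter coordinates are RefSeq's on GRCm38.p6.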

Additional observations from a re-analysis of the deposited data

Results flagged for a closer look

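Hnrnpdl had a genotype difference that changed with age by limma's F test (F = 14.85, adjusted p = 0.0278), from 1.25 at 60 days to -1.52 at 120 days, with no overlap at either age. Its change from 60 to 120 days was 1.78 in controls and -0.99 in G93A mice. These changes come from the same arrays as the differences at 60 and 120 days and are not independent of them. Hnrnpa2b1 changed by 1.85 in controls, where all arrays at 120 days were above those at 60 days, and by -1.0 in G93A mice, where all were below. Its F test of the genotype difference over the ages made no call (F = 8.51, adjusted p = 0.105). Sf3b5 had -1.0 in controls and 1.58 in G93A mice over the same interval, and Snrpe 0.66 and -0.57, each without overlap in either genotype and with no call. Srsf3 had a genotype difference of 0.95 at 90 days with all G93A arrays above and of -0.62 at 120 days with all below. For Sf3b5, Snrpe and Srsf3 too, that F test made no call (adjusted p = 0.418, 0.219 and 0.194).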

How the results depend on the processing

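At 60 days between genotypes 1 of the 44 genes passed the test, and 0 passed with no filter, no trend in the prior, either covariate, only the groups compared or the mean of all probe sets. At 120 days 1 passed with the hybridization-control covariate, against 0. The call in controls from 60 to 90 days went from 1 to 0 with no trend, with the hybridization-control covariate, with only the groups compared and with the mean of probe sets. In controls from 60 to 120 days the 9 calls became 2 with no trend, 1 with the Gapdh covariate, 3 with only the groups compared and 0 with the mean of probe sets. In G93A mice from 60 to 120 days the 4 calls became 0 with no trend, 0 with the hybridization-control covariate, 1 with the mean of probe sets and 2 without probe sets marked for cross-hybridization (added after seeing the data). The change of the genotype difference went from 1 call to 0 with quantile normalisation, no trend, the hybridization-control covariate or the mean of probe sets. The F test over the 6 groups gave 7 calls, 11 with the pseudocount, 15 with centred arrays, 2 with no trend, 2 with the hybridization-control covariate and 1 with the mean of probe sets. The median of the 44 genes at 120 days was -0.41 with centred arrays, and in controls from 60 to 120 days it was 0.48 with centred arrays and 0.26 with the Gapdh covariate. The direction reversed for Hnrnpab in controls from 60 to 120 days (-0.18 with the mean of probe sets, -1.50 without marked probe sets), for Sf3b6 in the same comparison (-0.66 with the mean of probe sets) and for Hnrnpf in G93A mice from 60 to 120 days (1.70 without marked probe sets). Except where a different probe set was read, the cause was not tested. With 1 array left out the calls ranged from 0 to 4 at 60 days, 0 to 2 at 120 days, 0 to 1 in controls to 90 days, 3 to 10 in controls to 120 days, 1 to 5 in G93A mice to 120 days, 0 to 2 for the change of the genotype difference and 6 to 10 for the F test over the 6 groups. The arrays without which a count moved by over 1.5 times were, at 60 days, G93A replicates 1 and 2 and control replicates 1 and 3 of that age and G93A replicates 2 and 3 of 90 days; at 120 days, control replicate 3; in controls to 120 days, control replicates 2 (5 calls) and 3 (3) of 60 days and 1 (4) of 120 days; in G93A mice to 120 days, G93A replicates 1 (2) and 2 (1) of 60 days and 2 (1) of 120 days. For the change of the genotype difference, 2 genes passed without control replicate 1 or 2 at 60 days or 3 at 120 days. Medians ranged from 0.07 to 0.32 at 60 days, -0.20 to -0.06 at 120 days and -0.44 to -0.34 in G93A mice to 120 days. Deviations from the group means of same-numbered G93A and control arrays of an age correlated by -0.12 to 0.06. No pairing by number was evident from this, and other links between arrays, such as litter, were not tested. With the numbers as a replicate block 1 gene passed at 60 days, 8 in controls and 4 in G93A mice to 120 days. That block gave 1 call for the change of the genotype difference and 9 for the F test over the 6 groups. Signal over background limits Hnrnpl, Snrpn and Sf3b5 most.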
